A study of Mus musculus with 2 samples.

Results

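Lymphocytes are drawn into lymph nodes and kept alive there by a small set of stromal products, and 8 of the genes that encode them are described here in cultured fibroblastic reticular cells (FRCs), the fibroblasts of the lymph node's reticular network. The genes are the homing chemokines Ccl19, Ccl21a, Ccl21b, Ccl21c, Cxcl12 and Cxcl13 and the survival cytokines Il7 and Il15. They were taken by symbol from the platform's probe annotation, which names 21144 genes in all, and probe sets that name several genes were kept. The 8 genes had 9 probe sets among 24679 on the array. Ccl19 had 4, the Ccl21 genes shared 1, and Cxcl12, Cxcl13, Il7 and Il15 had 1 each.

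The series holds 2 microarrays of 1 group, replicate 1 and replicate 2, of C57BL6/J mice aged 4 to 6 weeks that had received no treatment. Lymph node stroma was expanded in αMEM plus 10% fetal calf serum over 7 to 10 days, and the source label calls the FRCs purified. The cells were studied outside the node and after expansion, and the labels give neither the sorting step nor whether each array stands for its own animals, so the gap between arrays may partly be technical. No conditions can be compared within 1 group and no test was run, and the values below describe levels and the gap between the arrays.

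In the lymph node, Ccl19 and the Ccl21 proteins are ligands of the receptor CCR7 and guide T cells and dendritic cells into the T cell zone, where FRCs are a main source of both. Mice of the plt strain, which lack Ccl19 and the Ccl21 form of the lymphoid organs, have few T cells in their nodes. Cxcl13 draws B cells through CXCR5 and is made mainly by follicular stroma, and Cxcl12 is the ligand of CXCR4. Il7 keeps naive T cells alive, and Il15 sustains NK cells and memory CD8 T cells, carried on the surface of the producing cell by its own receptor chain, Il15ra. Signals through the lymphotoxin beta receptor and the NF-κB proteins RelB and p52 are known inducers of Ccl19, Ccl21 and Cxcl13.

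The Ccl21 genes cannot be separated on this array, and sequence upstream of the starts of Ccl21a and Ccl21d shows how alike this pair of copies is. The shared probe set names 7 genes: Ccl21a, Ccl21b, Ccl21c, Ccl21d, Gm13304, Gm10591 and Gm1987. The pair below, printed to show this likeness, is the 250 bases before the start of Ccl21a (chr4:42773992-42774241, minus strand) and of Ccl21d (chr4:41903363-41903612, plus strand), from RefSeq in build GRCm38.p6, written 5′ to 3′, with capitals for a base that differs.
Ccl21a: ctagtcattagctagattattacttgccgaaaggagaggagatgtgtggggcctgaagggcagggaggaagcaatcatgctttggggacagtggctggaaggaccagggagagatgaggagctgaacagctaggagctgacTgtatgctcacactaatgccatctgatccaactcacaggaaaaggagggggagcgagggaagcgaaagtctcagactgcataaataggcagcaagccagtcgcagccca
Ccl21d: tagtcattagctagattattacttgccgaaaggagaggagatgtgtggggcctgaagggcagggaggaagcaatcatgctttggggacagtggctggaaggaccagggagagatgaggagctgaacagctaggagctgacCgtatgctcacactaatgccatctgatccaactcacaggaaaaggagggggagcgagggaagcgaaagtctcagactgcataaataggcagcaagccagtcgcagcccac
Shifted by 1 base against each other, the stretches differed at 1 of 249 bases (99.6% identical). The upstream sequence of Ccl21b reads differently and was not aligned, and Ccl21c had no entry. Likeness upstream of a start does not show why the genes share a probe set. RefSeq lists Ccl21a next to Ccl19, Ccl21d next to the pseudogene Ccl19-ps1 and Ccl21c next to Ccl19-ps3, all assigned to chromosome 4. In these pairs copies of Ccl19 and Ccl21 are adjacent entries. Ccl21b and the pseudogene Ccl19-ps2 were listed beside other entries.

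The upstream sequences of Ccl19 and Cxcl13 are printed because the chemokines differ in how their levels lay to background, with some probe sets of Ccl19 above it and that of Cxcl13 below, and because both are known targets of the NF-κB pathway. They are the 250 bases before each start, Ccl19 at chr4:42756366-42756615 (minus strand) and Cxcl13 at chr5:95956689-95956938 (plus strand), GRCm38.p6, 5′ to 3′, with motif matches in capitals.
Ccl19: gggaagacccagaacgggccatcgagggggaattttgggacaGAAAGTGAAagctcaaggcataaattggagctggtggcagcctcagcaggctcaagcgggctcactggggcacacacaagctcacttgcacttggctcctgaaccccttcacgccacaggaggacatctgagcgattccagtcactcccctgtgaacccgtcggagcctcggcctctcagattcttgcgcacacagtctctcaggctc
Cxcl13: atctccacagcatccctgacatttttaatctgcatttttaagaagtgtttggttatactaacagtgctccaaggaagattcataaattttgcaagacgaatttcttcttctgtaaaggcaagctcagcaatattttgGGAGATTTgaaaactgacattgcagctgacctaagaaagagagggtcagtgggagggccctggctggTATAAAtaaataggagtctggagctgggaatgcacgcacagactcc
Searched on both strands were a κB core (GGANNNTCC), the κB variant known for RelB and p52 (GGAGANTT), an interferon regulatory factor motif (GAAANNGAA) and a TATA motif (TATAAA). No matches overlapped. Ccl19 matched the interferon regulatory factor motif, 208 to 200 bases before its start. Cxcl13 matched the RelB and p52 variant at 113 to 106 bases and the TATA motif at 46 to 41 bases. Among 32851 upstream sequences of the same length, 7.27% held the κB core, 3.99% the RelB and p52 variant, 7.13% the interferon regulatory factor motif and 12.4% the TATA motif. The κB core was in none of these upstream sequences of the members, while a looser κB pattern, GGG and CC with any 5 bases between, was in those of Ccl19, Cxcl12 and Cxcl13 and in 45.8% of all. Cxcl12, Ccl21a, Ccl21b and Ccl21d matched none of the 4 motifs in their own 250 bases. Entries were found for 5 of the 8 genes (Ccl19, Ccl21a, Ccl21b, Cxcl12 and Cxcl13). Ccl21c, Il7 and Il15 had none there. A match describes the letters in a window and not a site in use. Because the motifs were settled after matches to longer patterns had been seen, a match is no independent find.

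Levels are log2 intensities, and each was set against 2 background limits per array. The first, the olfactory limit, is the 95th percentile of 1035 olfactory receptor probe sets, 7.15 on replicate 1 and 7.17 on replicate 2. The second, the strict limit, is the 95th percentile of 39 probe sets of genes known from liver, testis, pancreas and other organs far from fibroblasts, 8.18 and 8.23. Of these 39 genes, 14 passed the olfactory limit on both arrays themselves. Of the 9 probe sets, 6 (66.7%) lay above the olfactory limit on both arrays and 3 (33.3%) above the strict limit. Over all probe sets the shares were 66.1% and 48%. The share of the first limit is close to that of the array as a whole, so it is no result about these genes. Levels of different genes are not compared, because probes differ in how strongly they bind.

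**Figure D1:**
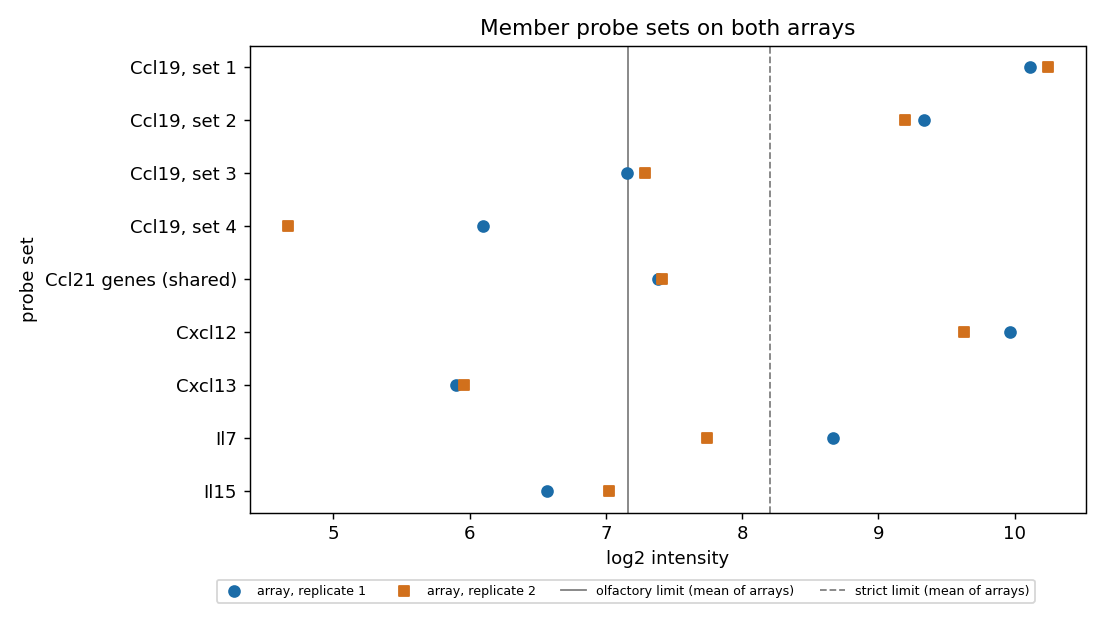
Log2 intensity (horizontal axis) of each of the 9 probe sets (vertical axis) on replicate 1 (circles) and replicate 2 (squares), with the olfactory limit (solid line) and the strict limit (dashed line), each as the mean of the arrays. Ccl19 sets 1 and 2 and Cxcl12 lie right of both lines on both arrays, Ccl19 set 4, Cxcl13 and Il15 lie left of both, and the Il7 points lie on either side of the dashed line.

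Ccl19 gave clear signal on some of its probe sets and none above background on another. Probe set 10512322 (set 1 in the plot of the member probe sets) read 10.11 on replicate 1 and 10.24 on replicate 2 (10.18 ± 0.09, mean ± SD, n = 2), 2.96 and 3.07 log2 units above the olfactory limits. Probe set 10504188 (set 2) read 9.33 and 9.19 (9.26 ± 0.10), also above both limits on both arrays. Both sets thus gave the same picture, and in each the arrays differed by no more than 1.10-fold.
Probe set 10512372 (set 3) read 7.16 and 7.29 (7.22 ± 0.09), which cleared the olfactory limit by 0.0047 on replicate 1 and by 0.11 on replicate 2 and lay below the strict limit. With 5 olfactory receptor entries of unusual name left out, it lay below the olfactory limit on replicate 1 as well. Probe set 10504132 (set 4) read 6.10 and 4.66 (5.38 ± 1.01), below both limits on both arrays, so no fold is given for it. The annotation gives the same gene and transcripts for all 4. The RefSeq table also lists the pseudogenes Ccl19-ps1, Ccl19-ps2 and Ccl19-ps3, and the sources used here do not say which copy each probe set reads, so the assignment of a level to Ccl19 itself is uncertain.

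The probe sets of Ccl19 disagreed, as those of many genes did. Readings under the olfactory limit were raised to that limit (this step was added once the values were known), and the highest and the lowest set of Ccl19 lay at least 3.01 log2 units apart. Among 893 genes with more than 1 probe set the median gap measured this way was 0.85, and 87 genes (9.74%), Ccl19 among them, had a gap at least as large. Of the 95 genes with 4 or more probe sets 32 did and their median gap was 2.02. In 188 of the 893 genes (21.1%) some probe sets passed the olfactory limit and others did not, as for Ccl19. An average over its 4 sets therefore stands for none of them.

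**Figure D2:**
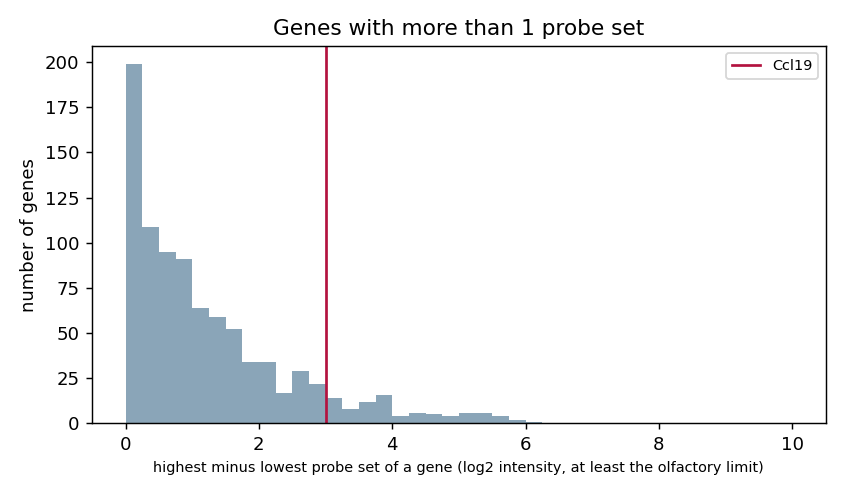
Number of genes (vertical axis) by the gap between the highest and the lowest probe set of a gene, in log2 intensity averaged over the arrays, with values below the olfactory limit set to it (horizontal axis), for 893 genes that have several probe sets. The line marks Ccl19 at 3.01, and the median of all is 0.85.

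The Ccl21 signal was low and nearly the same on both arrays. The shared probe set, 10512377, read 7.38 on replicate 1 and 7.41 on replicate 2 (7.40 ± 0.02, n = 2), a difference of 1.02-fold. Both values lay 0.23 to 0.24 log2 units above the olfactory limit and 0.79 to 0.82 below the strict limit. The reading cannot be divided among the 7 genes named, which include Ccl21a, the form known from lymph node stroma, and Ccl21b and Ccl21c, whose products are known from lymphatic vessels outside the node.

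The CXC chemokines fell on opposite sides of background. Cxcl12 read 9.96 on replicate 1 and 9.63 on replicate 2 (9.79 ± 0.24, n = 2), above both limits on both arrays, and was 1.26-fold higher on replicate 1. Cxcl13 read 5.90 and 5.96 (5.93 ± 0.04, n = 2), 1.25 and 1.22 log2 units below the olfactory limit. The arrays thus placed each of these genes alike. Genes on the list for follicular dendritic cells, the stromal cells best known for Cxcl13, fell on both sides of the limits. Above the olfactory limit lay 4 of 7 and above the strict one 3, where all named genes gave 67.3% and 48.9%. The complement receptor Cr2 (5.68 and 5.69), Fcer2a (6.13 and 6.25) and Fcgr2b (6.07 and 6.22) were below. Those above were Mfge8, Sox9 and Cr1l, which lay above both limits, and Coch (7.73 and 7.82). The summed linear intensity of the 7, which includes the 3 below the limits, was 9155 on replicate 1 and 9995 on replicate 2. Whether the genes above the limits stand for such cells here was not tested.

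Il7 was the member with the largest gap between the arrays among those above background. It read 8.66 on replicate 1 and 7.74 on replicate 2 (8.20 ± 0.65, n = 2), a 1.89-fold higher value on replicate 1. Both arrays exceeded the olfactory limit, by 1.51 and 0.57 log2 units, and replicate 1 alone exceeded the strict limit. With replicate 2 raised to the latter limit, the fold is at least 1.35. Il15 read 6.57 and 7.03 (6.80 ± 0.32, n = 2), below both limits on both arrays, so no fold is given for it. In RNA of many cells together, fewer producing cells and less RNA per cell cannot be told apart.

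Between the arrays, none of the 6 member probe sets with a mean above the olfactory limit differed 2-fold, and 1 of them, Il7, differed 1.5-fold. Of all 16652 probe sets above that mean, 1.23% differed 2-fold and 4.4% 1.5-fold, with arrays below the limit set to it. A gap of at least the size of Il7's was seen in 244 of them (1.47%). Of the 6, 3 were lower and 3 higher on replicate 2, and their median difference, replicate 2 minus replicate 1, was -0.06 log2 units beside -0.00025 over all 16652. Cxcl12 differed by -0.34, a size reached by 12.2% of the probe sets, and Ccl19 sets 1, 2 and 3 by 0.13, -0.14 and 0.13, against a median size of 0.11 over all. Each of these gaps rests on 1 array per side.

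**Figure D3:**
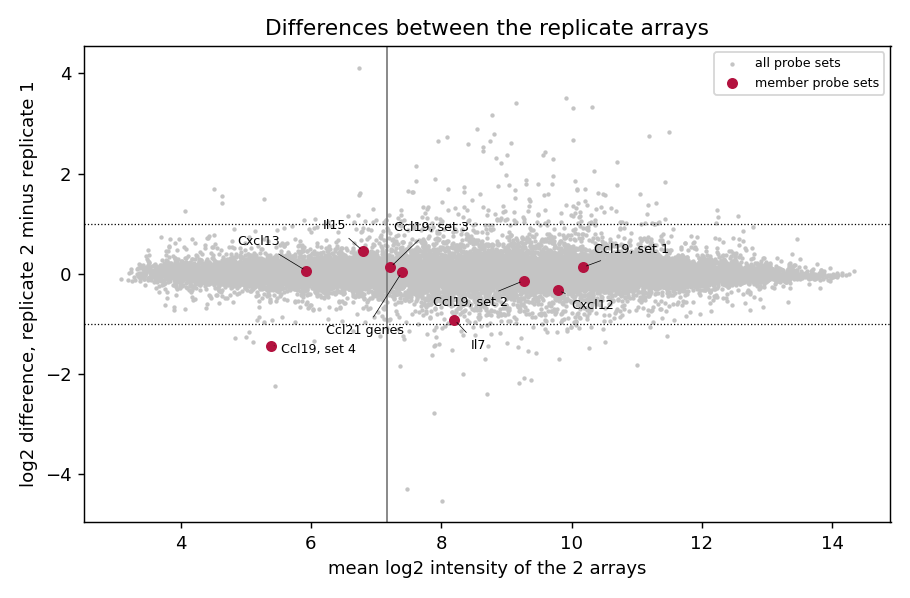
Log2 difference between the arrays, replicate 2 minus replicate 1 (vertical axis), against the mean log2 intensity of both arrays (horizontal axis), for all 24679 probe sets (grey) and the 9 member probe sets (red). The vertical line is the olfactory limit and the dotted lines mark 2-fold. Il7 lies just inside the lower dotted line at -0.92, and Ccl19 set 4, Cxcl13 and Il15 lie left of the limit, where no fold is given.

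Some other genes moved between the arrays in the same direction as Il7, and others moved the opposite way. Of the FRC identity genes above the olfactory limit, given below, 9 were higher and 3 lower on replicate 2. Of the genes that cut or display chemokines, also given below, 14 were higher and 5 lower. All 7 measured cell cycle genes were lower on replicate 2, with a median difference of -0.85 and Mki67 at 10.52 and 9.45. Lymphatic endothelial cells share the node's stroma with FRCs and are known to make Il7 and Ccl21. Of 6 of their markers, 2 lay above the olfactory limit on both arrays and 0 above the strict one. All named genes gave 67.3% and 48.9%. The genes that define lymphatic cells, Prox1 (6.44 and 6.40) and Lyve1 (6.76 and 7.14), were below, while Flt4 read 8.41 and 7.79. The summed linear intensity of these 6 markers was 973 on replicate 1 and 885 on replicate 2. As 4 of them lay below the olfactory limit on both arrays, background enters this sum, and Flt4 fell while Lyve1 rose. The part of proliferation or of lymphatic cells in the Il7 gap was not tested.

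Most receptors for the products of these genes lay below the strict limit, and Il15ra, the chain that presents Il15, lay above it. The list of receptors also holds the TSLP receptor chain Crlf2. Of 8 genes measured in it, 4 lay above the olfactory limit and 2 above the strict limit. All named genes gave 67.3% and 48.9%. Il2rg, also on the list, had no probe set that names it alone and was not measured. Il15ra read 8.59 on both arrays, above both limits, while Il15 was below them. Crlf2, which pairs with the Il7 receptor chain to bind the Il7-like cytokine TSLP, read 10.08 and 10.21, and that chain itself, Il7r, read 5.48 and 5.45.
Ccr7 (7.82 on both arrays) and Cxcr3 (7.49 and 7.47) exceeded the first limit only. Cxcr4 (7.03 and 7.00), Cxcr5 (5.95 and 6.02) and Il2rb (6.37 and 6.49) were below. Cxcr4 and Cxcr5 thus lay below background on the arrays on which the ligand Cxcl12 lay above both limits and the ligand Cxcl13 below them.

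Several atypical receptors bind chemokines and remove them without the usual signalling. Their list gave 3 of 7 above the olfactory limit and 0 above the strict one, where all named genes gave 67.3% and 48.9%. Ackr3, the scavenger of Cxcl12, read 7.54 and 7.42 and passed the first limit. Ackr4, the scavenger of Ccl19 and Ccl21, read 6.52 and 6.49 and did not. Ackr2 (7.71 and 7.66) and Pitpnm3 (8.02 and 8.05) passed the first limit, Ccrl2 (7.20 and 7.15) passed it on replicate 1 only, and Ackr1 (6.52 and 6.60) and Gpr182 (6.86 and 6.78) were below.

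Most genes listed as cutting chemokines or displaying them, many through heparan sulfate, lay above the limits. Above the olfactory limit were 19 of 21 and above the strict one 17, where all named genes gave 67.3% and 48.9%. The exceptions at the first limit were Dpp4 (6.79 and 6.91), the peptidase CD26 that inactivates Cxcl12, and Ctsg (6.19 and 6.30), the neutrophil protease cathepsin G. Some of the genes above it differed between the arrays. Plat, the tissue plasminogen activator, read 9.82 and 10.90, a difference of 1.08, and the heparan sulfate proteoglycan Gpc6 read 10.29 and 11.19 (0.90). Plau, the urokinase, read 11.71 and 11.00 (-0.71), and Mmp9, a gelatinase, 7.97 and 7.81 (-0.16). The median difference of the 19 was 0.09, beside 0.0046 for all named genes above the mean limit.

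Most measured components of the pathway known to induce these chemokines lay above the limits. Of 17 genes measured, 14 lay above the olfactory limit and 11 above the strict limit, where all named genes gave 67.3% and 48.9%. Whether the pathway was active was not tested. Chuk, Nfkb1 and Traf3, also on the list, had no probe set that names them alone and were not measured. The 5 ligands were divided, with Tnfsf11, the RANK ligand (9.15 and 9.34), above both limits and lymphotoxin beta, Ltb (7.28 and 7.31), above the olfactory limit. The 3 genes below were Lta (6.87 and 6.76), Tnf (6.52 and 6.57) and Tnfsf14, which encodes LIGHT (6.21 and 6.15). The TNF receptors Tnfrsf1a (11.28 and 11.51) and Tnfrsf1b (9.65 and 10.22) differed by 0.23 and 0.57 between the arrays. At the other end, Tnfrsf11a, the receptor RANK, read 7.74 and 7.33 (-0.41) and the NF-κB subunit Rela 11.52 and 11.45 (-0.07). Chosen after their values were seen, for their place in this pathway, were Tnfsf11, Ltb, the lymphotoxin beta receptor Ltbr (10.18 and 10.30), the kinase NIK, encoded by Map3k14 (8.76 and 8.75), Relb (8.59 and 8.60) and Nfkb2, which encodes p52 (10.37 and 10.36). These last 4 lay above both limits on both arrays, which is no result about the pathway, since they were picked with their values known. Cxcl13 lay below the first limit on the same arrays, and its relation to these genes was not tested.

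Among 11 other homing chemokines, 9 lay above the olfactory limit and 6 above the strict one, where all named genes gave 67.3% and 48.9%. Cxcl14 differed most between the arrays (8.64 and 10.10, a difference of 1.46), and Ccl25, a ligand for gut-homing T cells, read 8.29 and 8.67 (0.38) as the mean of 2 probe sets. Ccl17, a ligand of CCR4, read 9.99 and 9.42 (-0.57) and Cxcl10, a ligand of CXCR3, 8.76 and 8.36 (-0.40). Below the limit were Ccl22 (6.67 and 6.62), which shares the receptor CCR4 with Ccl17, and Cxcl11 (6.61 and 6.54).

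Of 14 other survival and growth factors, 10 lay above the olfactory limit and 4 above the strict one. The shares of all named genes were 67.3% and 48.9%. Il6 differed most between the arrays, reading 12.08 on replicate 1 and 10.83 on replicate 2 (a difference of -1.25), and Il33, an alarmin, read 8.10 and 7.44 (-0.66). Il34, a second ligand of the CSF1 receptor, read 8.57 and 8.90 (0.33) and the B cell survival factor Tnfsf13b 7.86 and 8.03 (0.17). Cytokines known mainly from lymphocytes were below: Il2 (5.54 and 5.65), Il4 (6.91 and 7.11) and Il21 (5.01 and 5.15), together with Csf2 (5.66 and 5.33). The 10 genes above the limit had a median difference of -0.12, with 6 lower and 4 higher on replicate 2, so the direction of Il7 was shared by part of the list only.

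Over all 6 lists of related genes, 59 of 78 measured (75.6%) lay above the olfactory limit and 40 (51.3%) above the strict limit, against 67.3% and 48.9% of all 19751 named genes. A 2-fold difference between the arrays was found in 3 of the 59 (Plat, Cxcl14 and Il6) and in 1.33% of all named genes above the mean limit.

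**Figure D4:**
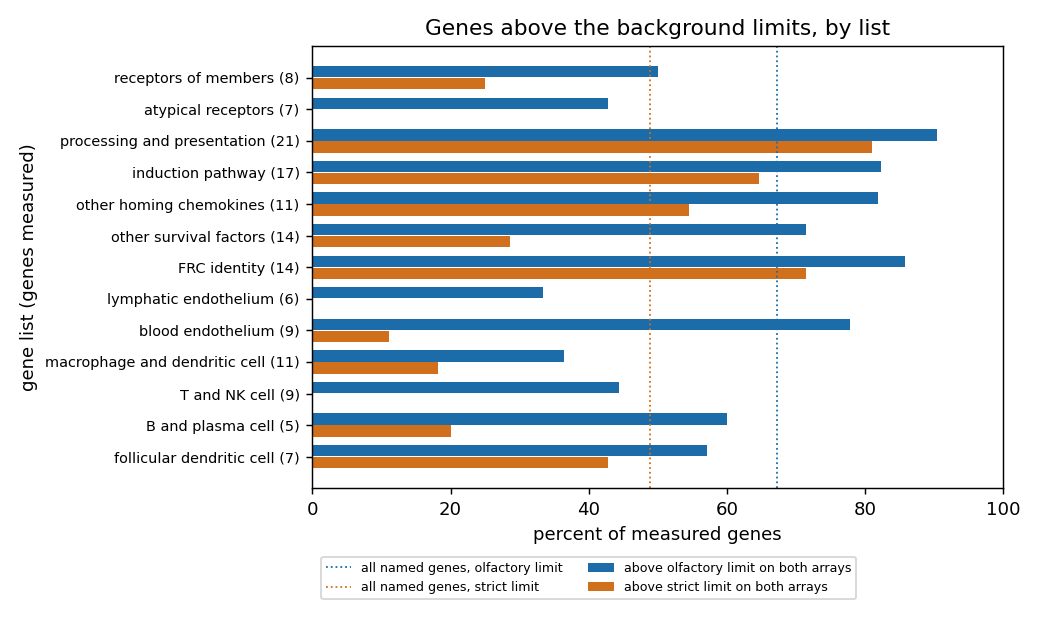
Percent of the measured genes of each list (vertical axis, number measured in brackets) above the olfactory limit (blue) and the strict limit (orange) on both arrays, with dotted lines for all named genes at 67.3% and 48.9%. Processing and presentation genes (19 and 17 of 21) and induction pathway genes (14 and 11 of 17) reach past both lines, and receptors (4 and 2 of 8) and atypical receptors (3 and 0 of 7) stay short of them.

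The label of the cells was checked against marker lists. Of 14 FRC identity genes, 12 lay above the olfactory limit and 10 above the strict one, with Fap (5.96 on both arrays) and Bst1 (6.46 and 6.66) below. In the cell types not described above, fewer genes passed the strict limit, which 48.9% of all named genes passed. Blood endothelial genes gave 1 of 9 and macrophage and dendritic cell genes 2 of 11. T and NK cell genes gave 0 of 9 and B and plasma cell genes 1 of 5, the syndecan Sdc1. Sdc1 is also in the list of presentation genes. Above the olfactory limit these counts were 7, 4, 4 and 3, where all named genes gave 67.3%. Follicular dendritic cell markers, described above, gave 3 of 7 above the strict limit. The macrophage and dendritic cell genes above the strict limit were the leukocyte tetraspanin Cd53 (10.67 and 10.75) and the lysosomal gene Cd68 (9.09 and 8.96). Lyz2, the lysozyme gene of myeloid cells, read 7.12 on replicate 1, below both limits, and 8.43 on replicate 2, above both. Ptprc, the pan-leukocyte gene CD45, read 6.41 and 6.47, below both limits. The summed linear intensity of that list was 3210.5 on replicate 1 and 3449 on replicate 2. It includes 5 genes below the olfactory limit on both arrays. The part of macrophages and dendritic cells in the members' levels was not tested.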

How the data were processed

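The values were deposited as 1 linear intensity per probe set and array, made by the authors with RMA of unstated version (background correction, quantile normalisation and probe set summary), per the submitters' processing notes. This method compresses differences at low signal and hides a change in total RNA per cell. Which arrays were normalised together, and the genome build, are not given in the sources used here. Medians were 286.0 and 285.7, and depth has no counterpart in reads, so the number of arrays, 2, limits the precision.

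Here the intensities were turned into log2 values, with Python 3.11.15 and pandas 2.3.3. Of 24679 probe sets, 21354 named 1 gene, 1275 several and 2050 had no annotation row. Counts over all probe sets include all of these. Probe sets of several genes were given by probe set for the members and for Ccl27, and those without a row entered only the counts. List genes are means over their own probe sets. The members and gene lists were chosen with earlier results of these data known. Named are all members and all receptor and atypical receptor genes and, of other lists, genes on the smaller side of the olfactory limit where 5 or fewer and the 2 largest differences in each direction. Of the marker lists, which served as a check, only some of those genes are printed, and Prox1, Lyve1, Ptprc, Lyz2 and Mki67 as defining genes. Gene and promoter tables were RefSeq's, GRCm38.p6. Alternatives were other limits, each array alone, quantile normalisation again, removal of a loess trend (span 0.3), a 1.5-fold threshold and other choices of probe sets. The motifs were settled after matches to longer patterns had been seen. The counting was tested on simulated data.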

Additional observations from a re-analysis of the deposited data

How the results depend on the processing

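The count of 6 member probe sets above the olfactory limit was 6 with the 90th percentile, on either array alone and after quantile normalisation, 5 with only single-gene probe sets, and 3 with the 99th percentile and 3 with the strict limit. The 3 above the strict limit were Ccl19 sets 1 and 2 and Cxcl12. Without 5 olfactory receptor entries of unusual name, an alternative chosen after seeing the data, the count was 5, because Ccl19 set 3 then lay below the limit of 7.16 on replicate 1. The count of 0 members with a 2-fold difference was 1 at 1.5-fold (Il7) and 1 without filter or limit (Ccl19 set 4, below both limits on both arrays), and stayed 0 with the strict limit, after quantile normalisation and after removal of the loess trend. The 59 list genes above the limit ranged from 40 to 65. Of the counts for single lists, 86 stayed within 1.5 times of the reported value and 18 did not, all under another limit. After quantile normalisation the 9 member levels, and after it or removal of the loess trend the 18 recomputed member differences, moved by less than the SD between the arrays. The deposited values were already quantile normalised, so repeating that step could move them little and shows little about stability. Leaving out an array moves a mean of 2 by less than that SD by construction and shows nothing about stability. No paired analysis was possible because there is 1 group. Signal near the limits, as for Ccl21 and Ccl19 set 3, cannot be told from background on 2 arrays.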

Other observations

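On the chromosome of Ccl19 and the Ccl21 genes, the skin-homing chemokine genes Ccl27a and Ccl27b showed the same kind of disagreement between probe sets. Both of their probe sets name the same 5 genes (Ccl27a, Ccl27b, Gm2506, Gm13306 and LOC100861978). Probe set 10512315 read 9.43 on replicate 1 and 9.54 on replicate 2, above both limits, and probe set 10504194 read 4.46 and 5.12, below both. The RefSeq table lists Ccl27a beside Il11ra1 and Ccl27b beside Il11ra2, on chromosome 4.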
